A study of Mus musculus with 8 samples.

Results

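The 34 genes described here are Trp53, the mouse gene for the tumor suppressor p53, together with genes that regulate p53 and genes that p53 is known to switch on. They were picked by gene symbol from the 53700 genes of the count table, and every one of the 34 was found once. Expression was measured by RNA-Seq in Lewis lung carcinoma (LLC) cells, a mouse lung tumor line, as WT cells or as cells lacking factor inhibiting HIF (FIH-KO). Cells of both genotypes spent 16 hours in 21% O2, called normoxia here, or in 1% O2, called hypoxia, and 2 libraries were sequenced per group, which gives 4 groups and 8 libraries. FIH-KO cells had been made with Cas9 and a guide against exon 2 of Hif1an, which encodes FIH in the mouse, and then diluted to single cells, and how many clones the sequenced RNA came from is not stated. No source says that the libraries of a group came from separate cultures, so the p values measure the spread between these libraries, which may be technical.

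p53 is a transcription factor that is kept scarce by the ubiquitin ligase Mdm2 and its partner Mdm4, and that is stabilized when DNA is damaged or the cell is otherwise stressed. It then binds response elements near its target genes, which stop the cell cycle, repair DNA, drive apoptosis or alter metabolism. Mdm2 is itself a p53 target, which closes a feedback loop. Because p53 is regulated mostly as a protein, the level of Trp53 mRNA does not report its activity. FIH is an oxygen-dependent asparaginyl hydroxylase that limits the transcriptional activity of the hypoxia-inducible factor HIF.

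Each library held between 14519731 and 18177016 counts. Levels are given as CPM, the counts of a gene scaled to library size with TMM factors. Of the 34 genes, 33 passed the filter on low counts and were tested among 13933 genes with edgeR, and a gene is said to rise, fall or differ where its Benjamini-Hochberg adjusted p was under 0.05. Hif1an, the edited gene, had between 82.3 and 90.2 CPM in the 4 WT libraries and between 34.8 and 51.0 CPM in the 4 FIH-KO libraries, and fell by 1.20 ± 0.12 (SE, adjusted p = 3.1e-05) on the log2 scale in normoxia and by 0.85 ± 0.12 (adjusted p = 0.00031) in hypoxia. It lies on chromosome 19, whose 476 tested genes had a median of -0.38 in normoxia and -0.45 in hypoxia for the same comparisons. Of 7 markers looked at for the LLC cells, 4 passed the filter on low counts. Krt8, Krt18 and Vim were detected in every library, and Krt7 and Krt19 had more than 3 counts in at least 1 library. Epcam had 0 counts and Cdh1 at most 3. The 4 lung epithelium markers had at most 3 counts in any library. Among the immune markers, Ptprc and Cd3e had at most 3 counts in any library, and Cd68 ran from 2.63 to 7.18 CPM. Lyz2, the lysozyme gene of myeloid cells, was between 0.137 and 0.533 CPM in WT and between 1.87 and 5.99 CPM in FIH-KO libraries. The 4 endothelial and fibroblast markers summed to between 7.93 and 28.3 CPM. The part of these markers in the results below was not tested. In bulk RNA, fewer expressing cells and less RNA per cell cannot be told apart.

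The 34 genes covered a wide range of levels per transcript length. In TPM, which scale counts to transcript length and library size, averaged over the 8 libraries, Ccng1 was the highest at 464, followed by Ckap2 at 206, Gtse1 at 192, Phlda3 at 188, Trp53 at 169 and Mdm2 at 104. The TPM ranges over the libraries overlapped between Ckap2, from 139.6 to 285, and Gtse1, from 139.2 to 248. Mdm4, which shares the Mdm2 role of restraining p53, averaged 38.7 TPM, with an exon length of 20386 bases beside 7709 for Mdm2. At the low end stood Ddb2 at 2.83, Fas at 1.03, Gdf15 at 1.02 and Dram1 at 0.608 TPM. Perp, which encodes an apoptosis-linked desmosome protein of epithelia, had 1 read in 2 libraries and 0 in the other 6. A count of 0 allows up to 3 counts, which is between 0.168 and 0.205 CPM in these libraries, and Perp was not tested.

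To see which of these genes carry a recognizable p53 response element near their start, the GRCm39 genome was searched from 2000 bases before to 5000 bases after each start site. The element searched was the p53 consensus of 2 adjoining half-sites of 10 bases, with no bases between them. Each half-site had to hold, without a mismatch, the core of a C, 2 bases that are A or T, and a G, and the remaining bases could differ from the consensus at up to 2 positions in all. The consensus reads alike on both strands, so each position was searched once. Such an element lay near 11 of the 34 genes (32.4%) and near 941 of all 21580 protein-coding genes searched (4.36%). With at most 1 mismatch it lay near 5 of the 34 (14.7%) and near 0.82% of all. Zmat3 held the only element without a mismatch among the 34, and 22 genes (0.102%) held one in the genome. A match describes the sequence only, and no binding was measured. The matches of the genes with at most 1 mismatch, and of 3 further genes that differed between the genotypes, follow in the direction of the gene, with the 2 cores in capitals.
Zmat3, intron, chr3:32418480-32418499, minus strand: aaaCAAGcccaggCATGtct
Ccng1, intron, chr11:40645763-40645782, minus strand: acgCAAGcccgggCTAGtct
Gtse1, intron, chr15:85744146-85744165, plus strand: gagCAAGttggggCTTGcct
Tigar, intron, chr6:127083149-127083168, minus strand: gggCTTGtttagcCTTGccc
Gdf15, exon, chr8:71084616-71084635, minus strand: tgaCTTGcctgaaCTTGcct
Ckap2, upstream, chr8:22676019-22676038, minus strand: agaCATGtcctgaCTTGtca
Fas, intron, chr19:34269764-34269783, plus strand: gggCATGtacaaaCATGtca
Pidd1, exon, chr7:141023216-141023235, minus strand: tggCAAGctgggaCATGtct

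**Figure D1:**
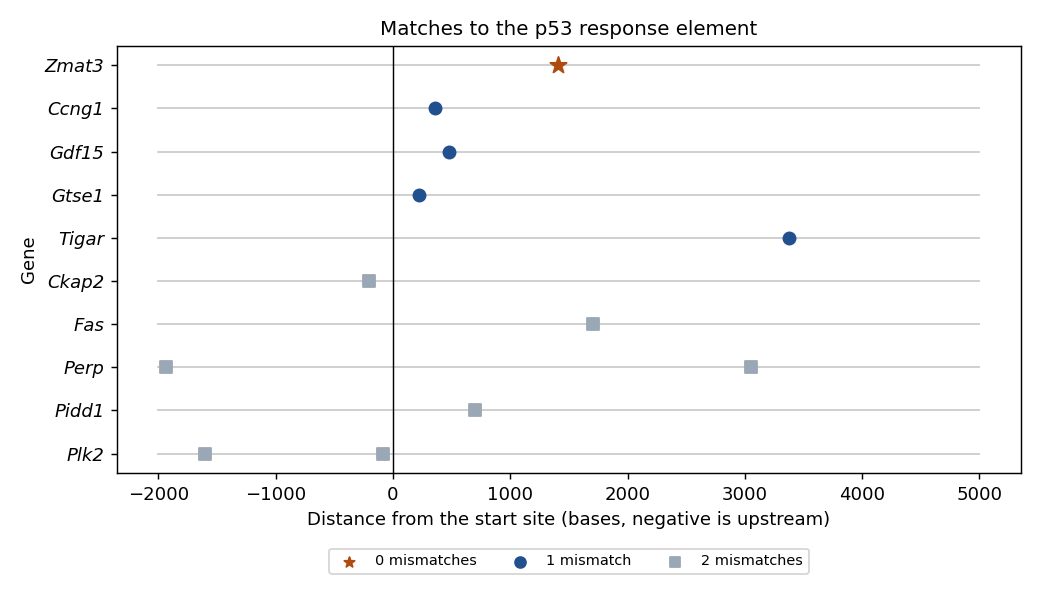
Distance in bases from the start site (x axis, negative is upstream) of each match to the p53 response element, for 10 of the genes (y axis), with the number of mismatches as symbol and the searched window as a grey line. The 5 elements with at most 1 mismatch lie downstream of the start site, from base 224 in Gtse1 to base 3377 in Tigar, and the match of Plk2 nearest to the start lies 87 bases before it.

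The genes with an element included Zmat3, Tigar, Plk2 and Gdf15, none of which differed between FIH-KO and WT cells, and Perp. The other 6 were Ccng1, Ckap2, Gtse1, Fas, Pidd1 and Pmaip1, each of which was higher in FIH-KO cells in 1 of the oxygen conditions. None of the 6 genes that were higher in both oxygen conditions had a match in this window. Mdm2, itself a p53 target, had none either, so the lack of a match here does not mark a gene as no target. With a match near 11 of all 34 genes (32.4%), 6 genes are too few to set apart from this share. Whether the matches have a part in the calls was not tested.

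The first question was how loss of FIH altered these genes. In normoxia, 13 of the 33 tested genes were higher in FIH-KO cells and 0 were lower by edgeR, with 1 lower at an unadjusted p under 0.05 and 0 by DESeq2. This stood beside a background of 15.2% of all tested genes called higher, 13% called lower and 28.2% called in all. Their median log2 fold change was 0.34, against 0.00 over all tested genes, and 25 of the 33 lay above 0. In hypoxia, 9 of them were higher and 2 were lower, beside 14.1% and 13.9% of all tested genes and 28% in all, and the median was 0.14 against -0.03. The hypoxic median was 0.066 without WT hypoxia replicate 2, 0.27 without FIH-KO hypoxia replicate 2 and 0.29 without WT hypoxia replicate 1. The libraries of FIH-KO cells lay wholly above those of WT cells in 24 of the 33 genes in normoxia (72.7%, against 34.6% of all tested genes) and in 15 in hypoxia (45.5%, against 29.1%). The group of 6 genes higher in both conditions was Btg2, Trp53inp1, Sesn1, Phlda3, Eda2r and Dcxr, where 9.97% of all tested genes were higher in both. Another 7 were called higher in normoxia alone (Mdm2, Bbc3, Pmaip1, Fas, Gtse1, Aen and Pidd1), 3 in hypoxia alone (Ccng1, Ei24 and Ckap2), and 15 in neither. The shares of all tested genes called in 1 condition alone or in neither were not counted, so these counts have no background beside them.

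**Figure D2:**
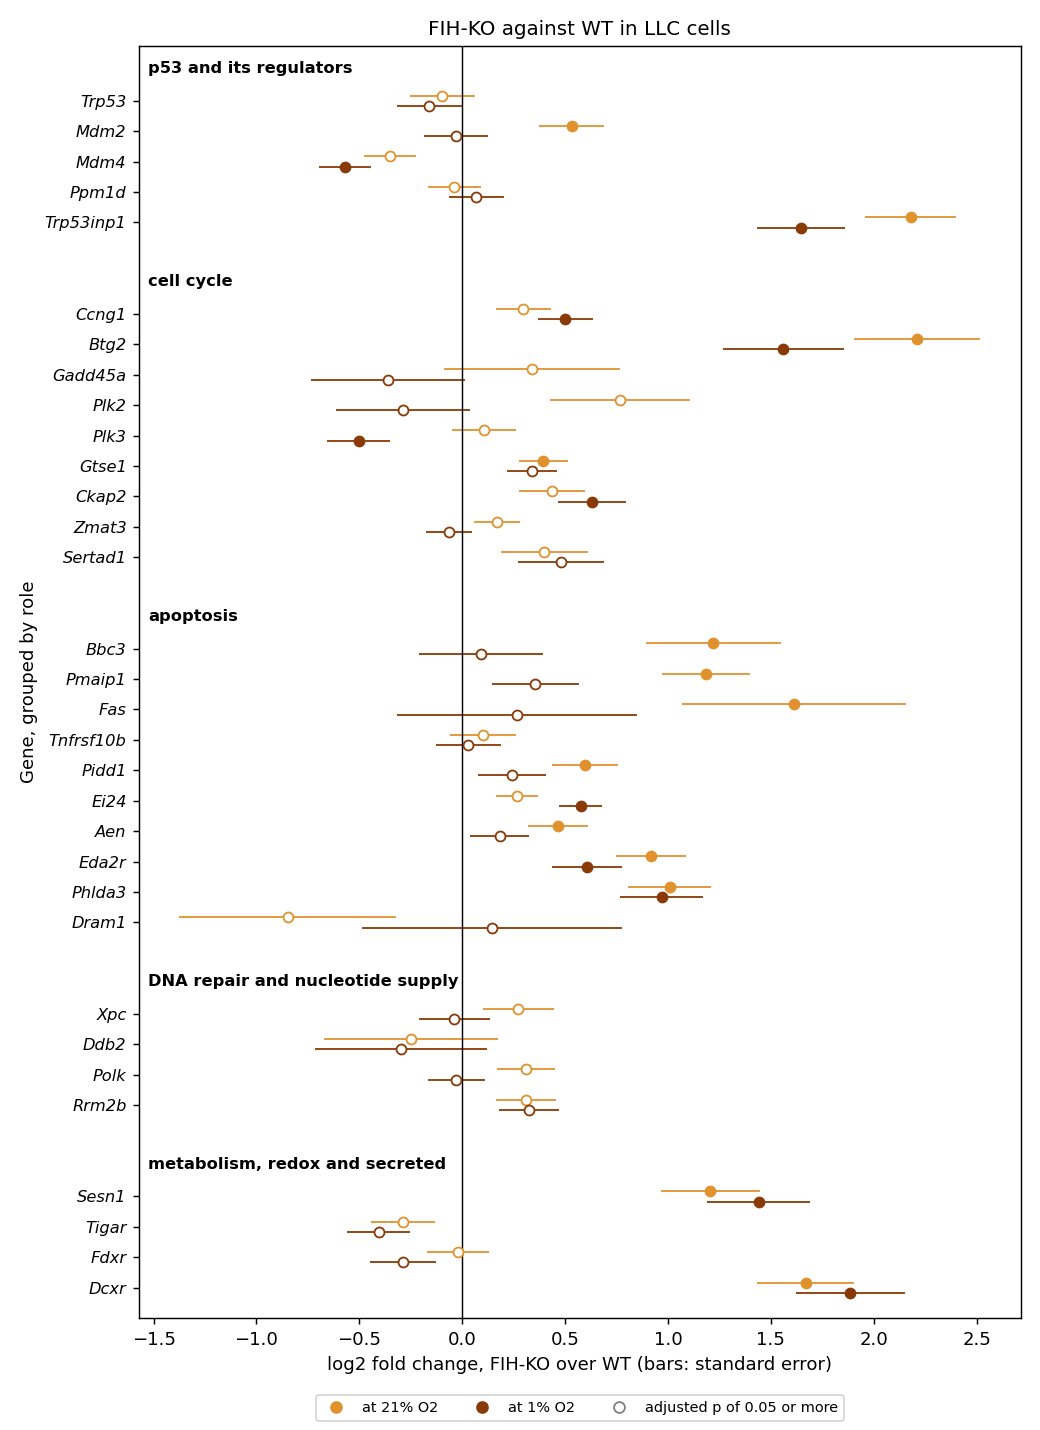
Log2 fold change of FIH-KO over WT (x axis, with SE) for 32 of the genes (y axis, by role), at 21% and 1% O2, with filled points for an adjusted p under 0.05. Filled points for Btg2 and Trp53inp1 lie between 1.56 and 2.21 in both conditions, and the filled points below 0 are those of Mdm4 (-0.57) and Plk3 (-0.50) at 1% O2; Gdf15 is left out for its low counts.

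Trp53 (ENSMUSG00000059552.14, chr11:69469669-69482701, plus strand, GRCm39) did not pass the test in any comparison. Its level was 250.3 and 274 CPM in WT normoxia, 227 and 263 in FIH-KO normoxia, 297 and 259.8 in WT hypoxia, and 294 and 204 in FIH-KO hypoxia. The ranges of the 4 groups overlapped. For FIH-KO over WT the log2 fold change was -0.10 ± 0.16 at 21% O2 (adjusted p = 0.69) and -0.16 ± 0.16 at 1% O2 (adjusted p = 0.49). For hypoxia over normoxia it was 0.09 ± 0.16 in WT (adjusted p = 0.71) and 0.02 ± 0.16 in FIH-KO cells (adjusted p = 0.94). Wrap53, on the opposite strand, overlaps Trp53 and had 2819 reads over the 8 libraries beside 33999 for Trp53. The library kit keeps strand, but the strand setting of the counting is not given in the sources used here, so reads of overlapping genes on opposite strands cannot be told apart. Overlap here and below is between the whole spans of genes, and the reads of a neighbor are all those counted for it. Whether the exons overlap was not checked.

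Mdm2 (chr10:117524780-117546730, minus strand), the ligase that marks p53 for degradation, was lowest in WT normoxia, at 103 and 97.9 CPM. It was 149 and 142 CPM in FIH-KO normoxia, 225 and 198 in WT hypoxia, and 247 and 167 in FIH-KO hypoxia. The WT normoxia libraries thus lay below all others, and the hypoxic ranges of the 2 genotypes overlapped. Mdm2 was 0.53 ± 0.16 higher (log2) in FIH-KO cells at 21% O2 (adjusted p = 0.025), and its difference at 1% O2 was -0.03 ± 0.16 (adjusted p = 0.90). Hypoxia raised it by 1.08 ± 0.16 in WT (adjusted p = 0.00044) and by 0.51 ± 0.16 in FIH-KO cells (adjusted p = 0.043). The latter did not pass with the 4 FIH-KO libraries alone (adjusted p = 0.099). The normoxic genotype call was lost without any 1 of the 4 normoxic libraries (adjusted p up to 0.16), and the call in FIH-KO cells without any 1 library other than FIH-KO hypoxia replicate 2 (adjusted p up to 0.32). On chromosome 10, which also holds Sesn1, the 671 tested genes had a median of 0.19 in normoxia and 0.14 in hypoxia for FIH-KO over WT.

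Mdm4 (chr1:132887222-132958299, minus strand), which binds p53 and blocks its activation domain, ran the other way between the genotypes. Its levels were 152 and 149 CPM in WT normoxia, 114 and 122 in FIH-KO normoxia, 198 and 259 in WT hypoxia, and 155 and 153 in FIH-KO hypoxia. FIH-KO libraries were below WT libraries at both oxygen levels. The difference was -0.35 ± 0.13 at 21% O2 (adjusted p = 0.056) and -0.57 ± 0.13 at 1% O2 (adjusted p = 0.0059), the latter lost without WT hypoxia replicate 2 (-0.36, adjusted p = 0.073). The normoxic difference passed under 4 other settings, with an adjusted p down to 0.018. Mdm4 rose with hypoxia in WT cells by 0.60 ± 0.13 (adjusted p = 0.0038, and 0.053 without WT normoxia replicate 2), and stood at 0.39 ± 0.13 in FIH-KO cells (adjusted p = 0.057).

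Trp53inp1 (chr4:11156412-11175230, plus strand), a stress-induced nuclear protein that promotes p53 phosphorylation, had, with Btg2, the highest log2 fold changes of the 33 genes for FIH-KO over WT in normoxia. WT libraries had 29.6 and 31.3 CPM in normoxia and 62.8 and 53.9 in hypoxia, and FIH-KO libraries had 168 and 108 in normoxia and 220 and 145 in hypoxia. The lowest FIH-KO library was above the highest WT library. It was higher in FIH-KO cells by 2.18 ± 0.22 at 21% O2 (adjusted p = 4.0e-05) and 1.65 ± 0.21 at 1% O2 (adjusted p = 0.00023). In WT cells hypoxia raised it by 0.94 ± 0.22 (adjusted p = 0.0068), a call lost without WT normoxia replicate 1 or WT hypoxia replicate 1 (adjusted p up to 0.064). Ppm1d, the phosphatase that switches p53 signaling off, had between 45.4 and 50.3 CPM in the normoxic libraries and between 29.6 and 35.4 in the hypoxic ones. It fell by 0.62 ± 0.13 with hypoxia in WT (adjusted p = 0.0040) and by 0.51 ± 0.13 in FIH-KO cells (adjusted p = 0.020). The FIH-KO call did not pass with the 4 FIH-KO libraries alone (adjusted p = 0.074). It was also lost when WT normoxia replicate 2 or replicate 1 of either FIH-KO group was left out. Without single libraries its log2 fold change ran from -0.60 to -0.43.

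**Figure D3:**
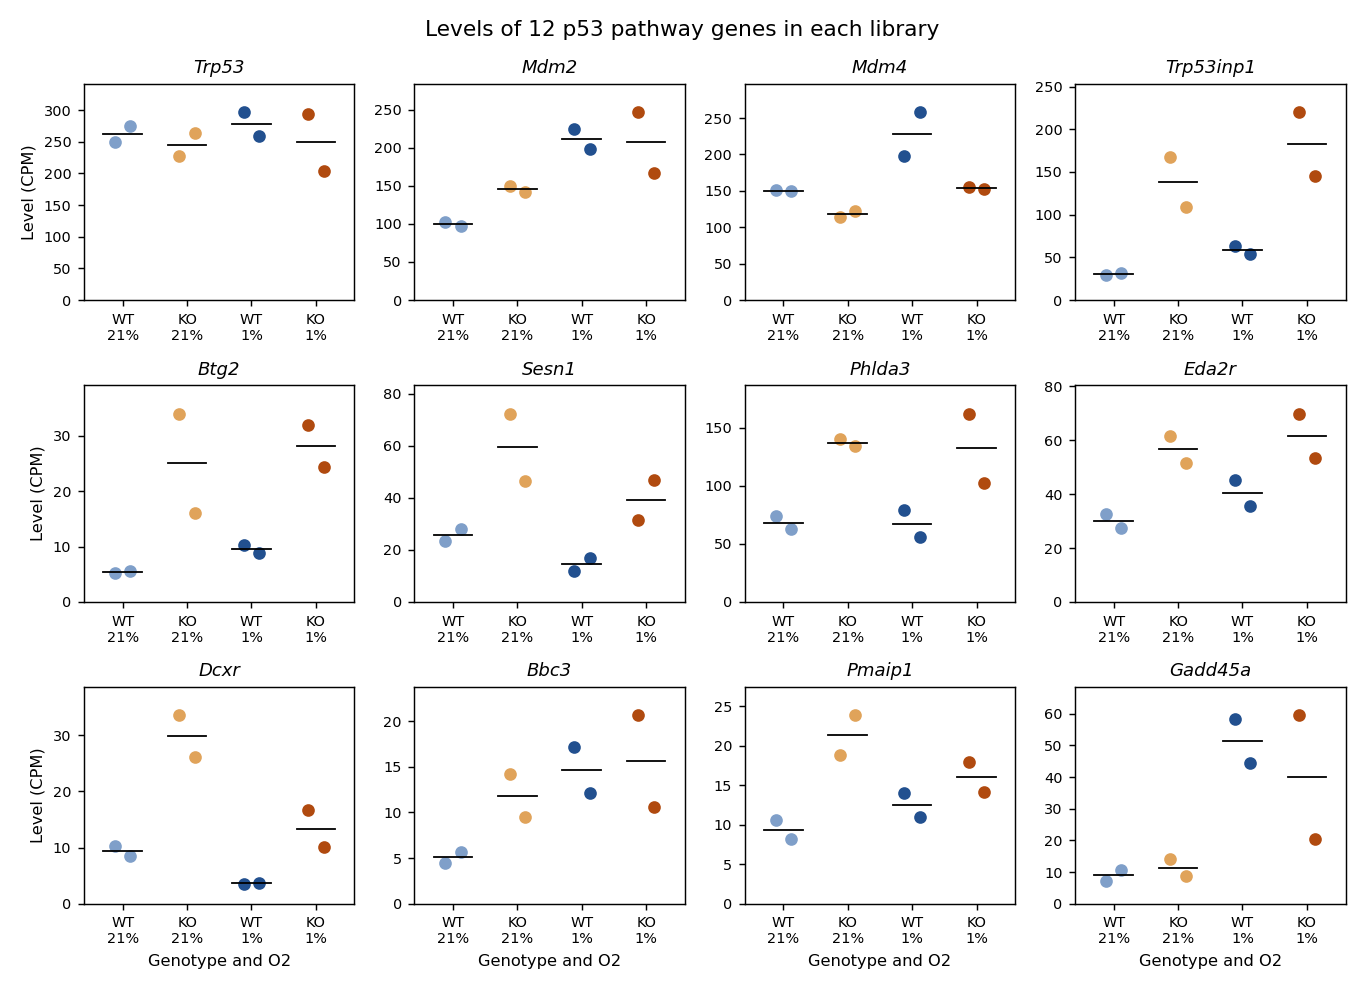
Level in CPM (y axis, from 0) of 12 genes in each library (points), by genotype and O2 (x axis), with the mean of the 2 libraries as a line. In Trp53inp1, Btg2, Sesn1, Phlda3 and Eda2r both FIH-KO libraries lie above both WT libraries at each oxygen level, whereas the Trp53 ranges overlap, and replicate 1 of FIH-KO hypoxia, the left point of its pair, is the higher of the 2 for Mdm2 (247 and 167) and Gadd45a (59.5 and 20.4).

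Of the 9 genes of the cell cycle, 2 were higher in FIH-KO normoxia than in WT normoxia, and 3 were higher and 1 lower in hypoxia, beside 15.2% of all tested genes higher in normoxia and 14.1% higher and 13.9% lower in hypoxia. DESeq2 called 3 and 4 of the 9 higher. Btg2 (chr1:134002908-134015033, minus strand), an antiproliferative protein that recruits mRNA deadenylases, had 5.21 and 5.57 CPM in WT normoxia, 34.0 and 16.0 in FIH-KO normoxia, 10.3 and 8.74 in WT hypoxia, and 31.9 and 24.3 in FIH-KO hypoxia. Every FIH-KO library was above every WT library, although the FIH-KO normoxia libraries differed from each other by more than those of any other group. Btg2 was higher in FIH-KO cells by 2.21 ± 0.31 at 21% O2 (adjusted p = 0.00035) and 1.56 ± 0.29 at 1% O2 (adjusted p = 0.0022).

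Ccng1, encoding the Mdm2-binding cyclin G1, had 454 and 420.2 CPM in WT normoxia, 587 and 488 in FIH-KO normoxia, 328 and 267 in WT hypoxia, and 417 and 425 in FIH-KO hypoxia. WT hypoxia was therefore the lowest group. Ccng1 fell by 0.56 ± 0.13 with hypoxia in WT cells (adjusted p = 0.0075) and was 0.50 ± 0.13 higher in FIH-KO than in WT cells in hypoxia (adjusted p = 0.015). Both calls were lost without WT hypoxia replicate 2 (adjusted p up to 0.14), and the first also without WT normoxia replicate 1. Nudcd2, on the opposite strand, overlaps it and had 9224 reads beside 55678 for Ccng1.

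Gtse1 and Ckap2 encode microtubule-associated proteins of dividing cells, and Gtse1 also moves p53 out of the nucleus. Gtse1 had 135 and 125 CPM in WT normoxia and 171 and 171 in FIH-KO normoxia, and was 0.39 ± 0.12 higher (adjusted p = 0.027), a call lost without any 1 of these 4 libraries (adjusted p up to 0.22). In hypoxia it had 117 and 93.5 CPM in WT and 133 and 134 in FIH-KO cells (0.34 ± 0.12, adjusted p = 0.053). Ckap2 had 133 and 126 CPM in WT and 163 and 188 in FIH-KO normoxia (0.44 ± 0.16, adjusted p = 0.063), and 105 and 89.6 in WT and 122 and 179.8 in FIH-KO hypoxia. Its hypoxic difference was 0.63 ± 0.16 (adjusted p = 0.013), and it did not pass without WT hypoxia replicate 2 or FIH-KO hypoxia replicate 2 (log2 fold change down to 0.33, adjusted p up to 0.12). All FIH-KO libraries of both genes lay above the WT libraries at the same oxygen level.

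Gadd45a, a stress sensor that holds cells at the G2/M transition, passed the test for oxygen in both genotypes and did not pass the test for genotype. It had 7.13 and 10.8 CPM in WT normoxia, 14.2 and 8.62 in FIH-KO normoxia, 58.3 and 44.3 in WT hypoxia, and 59.5 and 20.4 in FIH-KO hypoxia. All hypoxic libraries were above all normoxic ones. Gadd45a rose by 2.52 ± 0.41 with hypoxia in WT (adjusted p = 0.00086) and by 1.81 ± 0.40 in FIH-KO cells (adjusted p = 0.010), and its FIH-KO call was lost without FIH-KO normoxia replicate 2 or FIH-KO hypoxia replicate 1 (log2 fold change down to 0.85, adjusted p up to 0.088).

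Plk2 and Plk3 are stress-responsive polo-like kinases. Plk3 had 18.9 and 21.0 CPM in WT normoxia, 21.2 and 21.7 in FIH-KO normoxia, 34.4 and 43.4 in WT hypoxia, and 29.3 and 25.5 in FIH-KO hypoxia, so that WT hypoxia stood above the other groups. It rose by 0.96 ± 0.16 with hypoxia in WT cells (adjusted p = 0.00078) and was lower in FIH-KO than in WT cells in hypoxia, at -0.50 ± 0.15 (adjusted p = 0.028). That genotype call was lost with the 4 hypoxic libraries alone (adjusted p = 0.078) and without WT normoxia replicate 2, WT hypoxia replicate 2 or FIH-KO hypoxia replicate 2 (adjusted p up to 0.22). Plk2 had 14.2 and 8.77 CPM in WT normoxia and 32.1 and 17.6 in WT hypoxia. It rose by 1.12 ± 0.34 (adjusted p = 0.024), which did not hold with DESeq2 (adjusted p = 0.082) or without WT normoxia replicate 2 or WT hypoxia replicate 1 (adjusted p up to 0.27). In FIH-KO cells Plk2 ran from 13.7 to 27.2 CPM. Zmat3, the RNA-binding protein with the unmismatched element, ranged from 185 to 222 CPM over the 8 libraries, and Sertad1, a regulator of cyclin D and Cdk4, from 19.2 to 41.1, and neither passed the test in any comparison. On chromosome 3, which holds Zmat3, 683 genes were tested, and their median for FIH-KO over WT was -0.36 in normoxia and -0.41 in hypoxia.

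In normoxia the largest share of calls by role was among the genes of apoptosis. There, 7 of the 10 tested were higher in FIH-KO cells by edgeR, beside 15.2% of all tested genes, with a median log2 fold change of 0.76. By edgeR, by DESeq2 or at an unadjusted p under 0.05, 0 of the 10 were lower, where edgeR called 13% of all tested genes lower. In hypoxia, 3 were higher, beside 14.1% of all tested genes, and the median was 0.25. Pmaip1 (Noxa) and Bbc3 (Puma), the BH3-only proteins through which p53 triggers mitochondrial apoptosis, had different patterns over oxygen. Pmaip1 had 10.6 and 8.17 CPM in WT normoxia, 18.8 and 23.8 in FIH-KO normoxia, 14.1 and 10.9 in WT hypoxia, and 17.9 and 14.1 in FIH-KO hypoxia. FIH-KO normoxia lay above every other library. Pmaip1 was 1.19 ± 0.21 higher in FIH-KO cells at 21% O2 (adjusted p = 0.0017) and 0.36 ± 0.21 at 1% O2 (adjusted p = 0.24).

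Bbc3 had 4.43 and 5.69 CPM in WT normoxia, 14.2 and 9.52 in FIH-KO normoxia, 17.2 and 12.1 in WT hypoxia, and 20.6 and 10.6 in FIH-KO hypoxia. Only WT normoxia stood apart, below the other 3 groups, whose ranges overlapped. The difference was 1.22 ± 0.33 for FIH-KO over WT in normoxia (adjusted p = 0.015) and 1.53 ± 0.33 for hypoxia over normoxia in WT (adjusted p = 0.0040). The first was lost without either WT normoxia library or FIH-KO normoxia replicate 1 (adjusted p up to 0.15). Mdm2 and Trp53inp1 were the other genes that were both higher in FIH-KO normoxia and raised by hypoxia in WT cells, and these comparisons share the WT normoxia libraries.

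Phlda3 (chr1:135693809-135697686, plus strand), a repressor of Akt signaling, and Eda2r (chrX:96320270-96420847, minus strand), the ectodysplasin A2 receptor of the TNF receptor family, differed by genotype in both conditions. Phlda3 had 73.8 and 62.6 CPM in WT normoxia, 140.2 and 134 in FIH-KO normoxia, 79.0 and 55.9 in WT hypoxia, and 162 and 102 in FIH-KO hypoxia. Eda2r had 32.5 and 27.5, then 61.6 and 51.6, then 45.3 and 35.7, and 69.9 and 53.6 CPM in the same order of groups. In both genes all FIH-KO libraries were above all WT libraries. Phlda3 was higher by 1.01 ± 0.20 at 21% O2 (adjusted p = 0.0033) and 0.97 ± 0.20 at 1% O2 (adjusted p = 0.0041), and its hypoxic call was lost without WT hypoxia replicate 2 (0.60, adjusted p = 0.056). For Eda2r the differences were 0.92 ± 0.17 (adjusted p = 0.0021) and 0.61 ± 0.17 (adjusted p = 0.018), the second lost without WT hypoxia replicate 2 or FIH-KO hypoxia replicate 1 (adjusted p up to 0.15).

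Pidd1, Aen and Fas had calls that depended on single libraries. Pidd1, the death-domain scaffold that activates caspase-2, had 17.7 and 22.3 CPM in WT normoxia, 28.2 and 32.2 in FIH-KO normoxia, and between 16.2 and 21.4 in the hypoxic libraries. It was 0.60 ± 0.16 higher in FIH-KO cells in normoxia (adjusted p = 0.016) and fell by 0.56 ± 0.16 with hypoxia in FIH-KO cells (adjusted p = 0.032). That fall did not pass with the 4 FIH-KO libraries alone (adjusted p = 0.074). The genotype call was lost without WT normoxia replicate 1 or FIH-KO normoxia replicate 2 (adjusted p up to 0.18), and the oxygen call without any 1 of the 4 FIH-KO libraries or WT normoxia replicate 2 (adjusted p up to 0.16). Aen, a nuclease that fragments DNA in dying cells, had 60.4 and 57.8 CPM in WT and 73.5 and 89.5 in FIH-KO normoxia (0.46 ± 0.15, adjusted p = 0.031), and the call was lost without either WT normoxia library or FIH-KO normoxia replicate 2 (adjusted p up to 0.20). Fas, the death receptor of the extrinsic pathway, had 6 and 3 reads in WT and 16 and 14 in FIH-KO normoxia, 6 in each WT hypoxia library and 7 in each FIH-KO hypoxia library. The ratio of normoxic CPM was 3.12, with an exact 95% counting interval from 1.44 to 7.47 that leaves out variation between cultures. Its difference of 1.61 ± 0.55 (adjusted p = 0.044) was lost with DESeq2 and with 2 other settings (adjusted p up to 0.22) and without any 1 of the 4 normoxic or the 2 WT hypoxia libraries (adjusted p up to 0.28). Fas lies on chromosome 19, as Hif1an does, whose tested genes had a median of -0.38 in normoxia and -0.45 in hypoxia between the genotypes.

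Ei24, an endoplasmic reticulum protein linked to autophagy, fell with hypoxia in both genotypes and was higher in FIH-KO cells in hypoxia. It had 133 and 121 CPM in WT normoxia, 151 and 154 in FIH-KO normoxia, 75.2 and 75.7 in WT hypoxia, and 110.2 and 115 in FIH-KO hypoxia. The hypoxic libraries were all below the normoxic ones, and the FIH-KO libraries above the WT libraries at each oxygen level. Ei24 fell by 0.75 ± 0.10 with hypoxia in WT (adjusted p = 0.00029) and by 0.44 ± 0.10 in FIH-KO cells (adjusted p = 0.013), and was 0.58 ± 0.10 higher in FIH-KO cells in hypoxia (adjusted p = 0.0017). Its genotype difference in normoxia was 0.27 ± 0.10 (adjusted p = 0.070). Its fall in FIH-KO cells did not pass with the 4 FIH-KO libraries alone (adjusted p = 0.077) or without FIH-KO normoxia replicate 2 (adjusted p = 0.0502). Fez1, on the opposite strand, overlaps Ei24 and had 4440 reads beside 15362. Tnfrsf10b, a TRAIL receptor, ran from 40.4 to 63.0 CPM and Dram1, a lysosomal protein of autophagy, from 0.312 to 1.41 CPM, and both passed in no comparison. Dram1 had 5 to 22 reads a library, which limits what its test can show.

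Of the 4 genes of DNA repair and nucleotide supply, 0 differed between the genotypes at either oxygen level by edgeR or DESeq2. By edgeR this stood beside 28.2% of all tested genes in normoxia and 28% in hypoxia, and 4 genes are too few to set apart from these shares. At each oxygen level 1 of the 4 had an unadjusted p under 0.05. Xpc, which recognizes distorted DNA in nucleotide excision repair, ran from 17.2 to 24.4 CPM over all libraries, and Rrm2b, the p53-induced subunit of ribonucleotide reductase, from 18.2 to 25.9. Ddb2, the damage sensor that works with Xpc, had 22 to 53 reads a library, and Acp2 on the opposite strand overlaps it with 7274 reads beside its own 332. Polk, a translesion DNA polymerase, had 38.6 and 36.9 CPM in WT normoxia and 50.4 and 56.2 in WT hypoxia, and rose by 0.50 ± 0.14 (adjusted p = 0.018). This call was lost without either WT normoxia library or WT hypoxia replicate 2 (adjusted p up to 0.15), and Cert1, on the opposite strand, overlaps Polk with 6838 reads beside 6206.

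Among the genes of metabolism, redox state and secreted factors, Sesn1 and Dcxr were higher in FIH-KO cells in both conditions, and both fell with hypoxia in WT cells. Sesn1 (chr10:41685931-41784423, plus strand), a sestrin that restrains mTORC1 and limits peroxides, had 23.3 and 28.1 CPM in WT normoxia, 72.3 and 46.6 in FIH-KO normoxia, 11.99 and 16.9 in WT hypoxia, and 31.4 and 46.9 in FIH-KO hypoxia. Every FIH-KO library was above every WT library. It was higher in FIH-KO cells by 1.21 ± 0.24 at 21% O2 (adjusted p = 0.0032) and 1.44 ± 0.25 at 1% O2 (adjusted p = 0.0014). In WT cells it fell by 0.84 ± 0.25 with hypoxia (adjusted p = 0.024), which was lost without either WT normoxia library or WT hypoxia replicate 1 (adjusted p up to 0.20). In FIH-KO cells its change with hypoxia was -0.60 ± 0.24 (adjusted p = 0.10), and the libraries of the 2 oxygen levels overlapped. Cep57l1, on the opposite strand, overlaps it and had 3057 reads beside 4569.

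Dcxr (chr11:120616047-120618147, minus strand), a dicarbonyl and xylulose reductase, had 10.3 and 8.47 CPM in WT normoxia, 33.5 and 26.1 in FIH-KO normoxia, 3.47 and 3.75 in WT hypoxia, and 16.6 and 10.1 in FIH-KO hypoxia. At each oxygen level FIH-KO libraries were above WT libraries, and in each genotype the hypoxic libraries were below the normoxic ones. The genotype difference was 1.67 ± 0.23 at 21% O2 (adjusted p = 0.00037) and 1.89 ± 0.26 at 1% O2 (adjusted p = 0.00039). Dcxr fell by 1.37 ± 0.27 with hypoxia in WT (adjusted p = 0.0024) and by 1.16 ± 0.23 in FIH-KO cells (adjusted p = 0.0054), the latter lost without FIH-KO normoxia replicate 1 (-0.84, adjusted p = 0.056). Fdxr, the mitochondrial ferredoxin reductase, fell with hypoxia from 19.99 and 23.5 to 15.8 and 15.4 CPM in WT cells (-0.48 ± 0.15, adjusted p = 0.033) and from 21.9 and 21.0 to 13.4 and 12.2 in FIH-KO cells (-0.75 ± 0.16, adjusted p = 0.0076). Its WT call was lost without any 1 of the 4 WT libraries (adjusted p up to 0.22).

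Tigar, a fructose bisphosphatase that slows glycolysis, ran from 21.6 to 33.7 CPM and passed in no comparison. Gdf15, a secreted stress cytokine, had 0 and 2 reads in the normoxic libraries of each genotype, 21 and 16 in WT hypoxia, and 18 and 3 in FIH-KO hypoxia. Its CPM ratio of hypoxia over normoxia was 18.5 in WT cells, with an exact 95% counting interval from 4.77 to 158, and 11.6 in FIH-KO cells, with an interval from 2.84 to 102. The adjusted p was 0.011 in WT cells and 0.058 in FIH-KO cells. The WT call was lost without WT normoxia replicate 1 or WT hypoxia replicate 1 (adjusted p up to 0.080).

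The second question was how oxygen altered these genes. In WT cells, 9 of the 33 rose with hypoxia and 6 fell, beside 16.9% and 15.5% of all tested genes and 32.4% in all, and the median log2 fold change was 0.20 against 0.00, and 0.12 without WT normoxia replicate 2. In FIH-KO cells, 2 rose and 5 fell, beside 8.84% and 8% of all tested genes and 16.8% in all, and the median was 0.02 against -0.03. The median in FIH-KO cells was -0.16 without FIH-KO hypoxia replicate 1, 0.19 without FIH-KO hypoxia replicate 2, -0.040 without FIH-KO normoxia replicate 1, 0.0041 without FIH-KO normoxia replicate 2 and 0.045 without WT normoxia replicate 2. Mdm2 and Gadd45a rose in both genotypes, where 7.92% of all tested genes did. Ei24, Dcxr, Ppm1d and Fdxr fell in both, where 6.33% of all tested genes did. The 7 that rose in WT cells without passing in FIH-KO cells were Mdm4, Trp53inp1, Bbc3, Plk2, Plk3, Polk and Gdf15. Of the 9 genes that were higher in FIH-KO cells in hypoxia, 4 (Ccng1, Sesn1, Ei24 and Dcxr) fell with hypoxia in WT cells, and these comparisons share the WT hypoxia libraries. The shares of all tested genes with this pattern, or with a rise called in WT cells alone, were not counted.

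**Figure D4:**
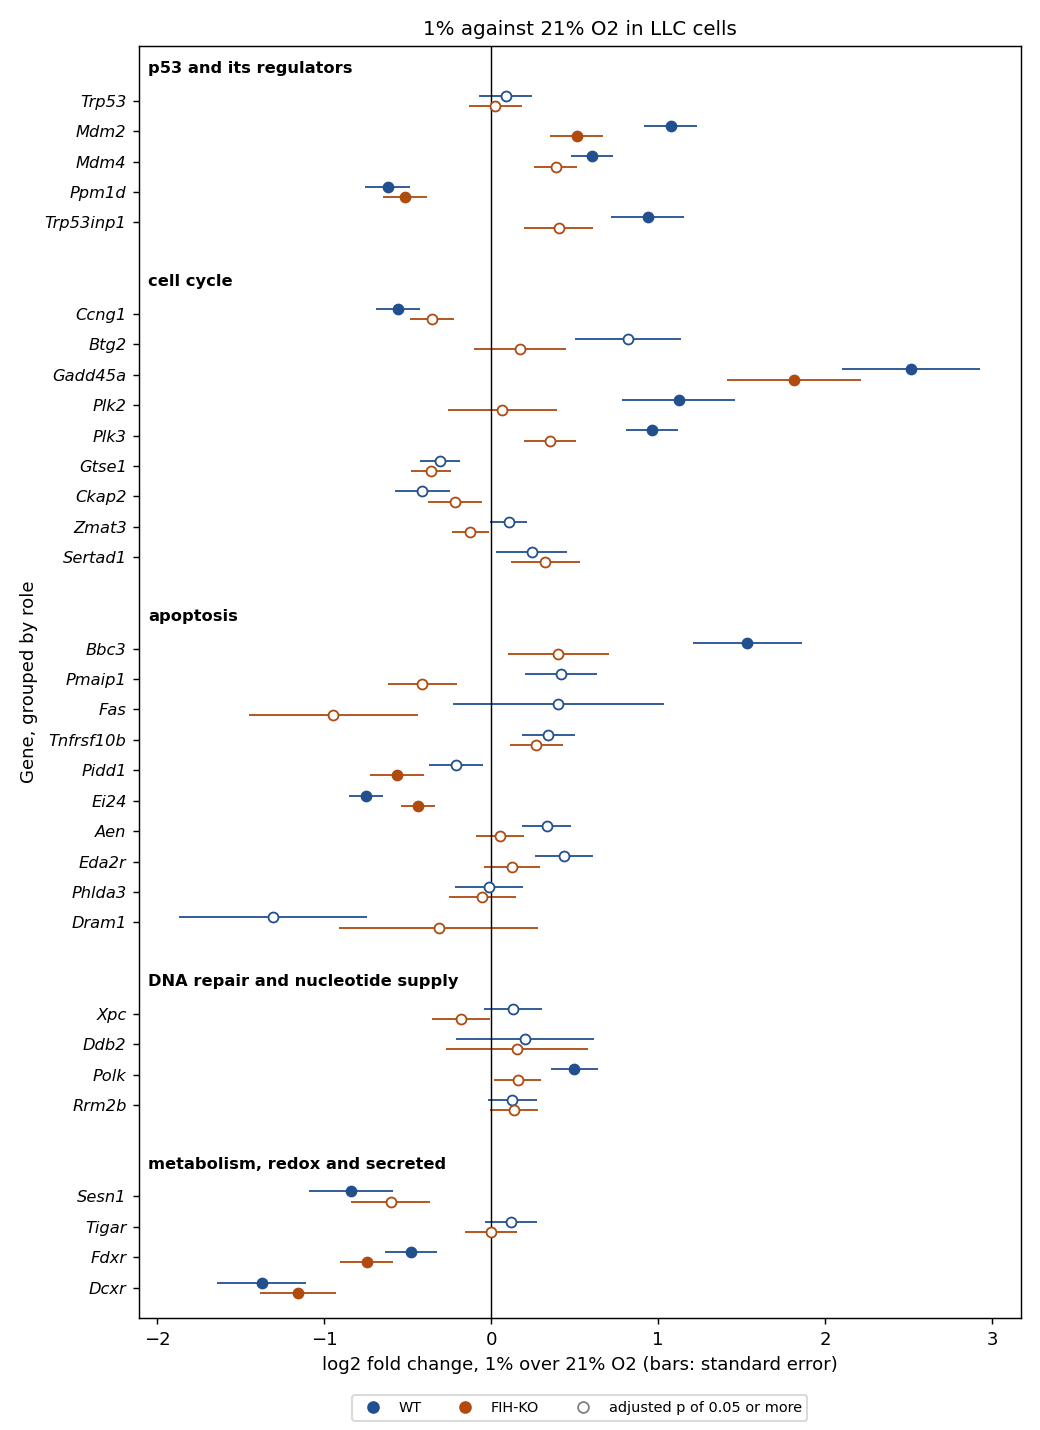
Log2 fold change of 1% over 21% O2 (x axis, with SE) for 32 of the genes (y axis, by role) in WT and FIH-KO cells, with filled points for an adjusted p under 0.05. Gadd45a has the highest points (2.52 in WT cells, 1.81 in FIH-KO cells) and Dcxr the lowest filled ones (-1.37 and -1.16); Gdf15 is left out for its low counts.

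Whether the effect of FIH-KO differed between normoxia and hypoxia was tested as its own contrast. In edgeR 0 of the 33 genes passed, as did 0% of all tested genes, although 5 of the 33 and 925 of all genes had an unadjusted p under 0.05. DESeq2 called 0 of the 33 and 40 of all genes. The difference of the hypoxic from the normoxic effect was -0.56 ± 0.22 for Mdm2 (adjusted p = 0.66), -0.22 ± 0.18 for Mdm4 (adjusted p = 0.84) and -0.06 ± 0.22 for Trp53 (adjusted p = 0.97). It was below 0 in 24 of the 33 genes. A pass in normoxia alone, as for Pmaip1, Bbc3 and Mdm2, is therefore not a tested difference between the oxygen conditions.

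The libraries of FIH-KO hypoxia stood further apart for these genes than those of the other groups. Replicate 2 was below replicate 1 in 24 of the 33 genes, and the median log2 difference was -0.34, against -0.18 to -0.06 in the other groups. The median absolute difference between these 2 libraries was 0.394 for the 33 genes and 0.231 for all tested genes. Between the same libraries all 12 of the proliferation genes were higher in replicate 2, with a summed level of 2437 CPM in replicate 1 and 3775 in replicate 2, and 11 of 12 genes of the ATF4 stress response were lower, with 2647 and 2249 CPM. Their part in the values of the 33 genes was not tested. Without replicate 1 of FIH-KO hypoxia, the median log2 fold change of the 33 genes for FIH-KO over WT in hypoxia was 0.15. Without replicate 2 it was 0.27. For hypoxia over normoxia in FIH-KO cells the medians were -0.16 and 0.19. In normoxia, the median for FIH-KO over WT was 0.35 without WT normoxia replicate 1 and 0.32 without replicate 2. Many calls in the 33 genes were lost when a compared library was left out. Fewer of all tested genes were called in such fits too, except for hypoxia in FIH-KO cells without FIH-KO hypoxia replicate 2.

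Further genes of the pathway were taken from lists of textbook members. Of 18 tested p53 targets outside the 34 genes, 8 were higher in FIH-KO cells in normoxia, beside 15.2% of all tested genes, with a median of 0.41. There 0 were lower by edgeR, by DESeq2 or at an unadjusted p under 0.05, where edgeR called 13% of all tested genes lower. In hypoxia 4 were higher and 3 lower, beside 14.1% and 13.9% of all tested genes, with a median of 0.09. Cdkn1a, which encodes the cell cycle inhibitor p21, had 134 and 112 CPM in WT normoxia, 246 and 227 in FIH-KO normoxia, 340.2 and 275 in WT hypoxia, and 428 and 284 in FIH-KO hypoxia. WT normoxia was the lowest group, as for Mdm2. It was 0.94 ± 0.18 higher in FIH-KO cells at 21% O2 (adjusted p = 0.0023) and 0.21 ± 0.18 at 1% O2 (adjusted p = 0.41). Bax, the pore-forming protein of mitochondrial apoptosis, was higher by 0.55 ± 0.14 at 21% O2 (adjusted p = 0.010) and 0.58 ± 0.14 at 1% O2 (adjusted p = 0.0083), calls lost without WT normoxia replicate 1 or 2 or FIH-KO normoxia replicate 1 (adjusted p up to 0.092) and without WT hypoxia replicate 2 or FIH-KO hypoxia replicate 1 (adjusted p up to 0.080). Among the other targets that passed, the largest differences were those of the tetraspanin Cd82 (1.55), Psrc1 (1.09) and Abhd4 (0.97) in normoxia, and of Trp53i11 (-2.47), Psrc1 (1.26), Steap3 (1.24) and the noncoding Trp53cor1 (-0.98) in hypoxia. The value of Trp53i11 rests on few reads, 37 and 49 in the WT hypoxia libraries and 5 and 10 in those of FIH-KO hypoxia. With hypoxia, 4 of the 18 rose and 3 fell in WT cells, beside 16.9% and 15.5% of all tested genes. In FIH-KO cells 3 rose and 2 fell, beside 8.84% and 8%.

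Upstream of p53, 2 of 11 tested activators and kinases were higher and 3 lower in FIH-KO normoxia, and 2 were lower in hypoxia, beside 15.2% of all tested genes higher and 13% lower in normoxia and 13.9% lower in hypoxia. Atm, the kinase that signals DNA breaks to p53, was lower in both conditions, at -0.67 in normoxia and -0.77 in hypoxia, as was the checkpoint kinase Chek1, at -0.57 and -0.47. The coactivator Crebbp and the DNA-dependent kinase Prkdc were each 0.61 higher in normoxia. With hypoxia, Atr and Crebbp rose in WT cells (0.68 and 0.80) and Atr in FIH-KO cells (0.76), beside 16.9% and 8.84% of all tested genes. Cdkn2a, whose Arf product inhibits Mdm2, had 0 counts in every library. Of the 7 other p53 ligases and deubiquitinases, Trim24 was higher in FIH-KO normoxia (0.54), beside 15.2% of all tested genes. Usp10 was lower in FIH-KO hypoxia (-0.45), beside 13.9%, and also fell with hypoxia in FIH-KO cells (-0.44), beside 8%.

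Gene groups known to move with stress, growth and oxygen were measured beside the p53 genes. Of the 12 genes of the ATF4 stress response, which shares Sesn2 with the p53 targets, 11 rose with hypoxia in WT and 9 in FIH-KO cells. This stood beside 16.9% and 8.84% of all tested genes, and the medians of the 12 genes were 2.28 and 1.70. Their summed level was 1599.8 and 1752 CPM in WT normoxia, 1083 and 1211 in FIH-KO normoxia, 3694 and 3184 in WT hypoxia, and 2647 and 2249 in FIH-KO hypoxia. In FIH-KO normoxia 2 of the 12 were higher and 4 lower than in WT, beside 15.2% and 13% of all tested genes. There 7 lay above 0, with a median of 0.28 and a lowest value of -6.18, so the sum does not describe most of them. In FIH-KO hypoxia 5 were lower, beside 13.9%, with a median of -0.50. By edgeR, by DESeq2 or at an unadjusted p under 0.05, 0 were higher there. Of the 12 proliferation genes, 5 were lower in FIH-KO normoxia, beside 13% of all tested genes. In hypoxia 0 differed by edgeR, beside 28% of all tested genes. DESeq2 called 1 of the 12 lower there, and 1 in each direction had an unadjusted p under 0.05 by edgeR. Their summed level was 3796 and 3701 CPM in WT normoxia, 2854 and 2897 in FIH-KO normoxia, 2949 and 3223 in WT hypoxia, and 2437 and 3775 in FIH-KO hypoxia. All 10 hypoxia-response genes rose with hypoxia in WT and 9 in FIH-KO cells, beside the same 16.9% and 8.84% of all tested genes. Between the genotypes 2 of these were higher and 1 lower in normoxia, beside 15.2% and 13% of all tested genes. In hypoxia 3 were higher and 1 lower, beside 14.1% and 13.9%. Whether any of these groups has a part in the values of the p53 genes was not tested.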

How the data were processed

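RNA of WT and FIH-KO LLC cells kept in 21% or 1% O2 for 16 hours was sequenced in 8 libraries, 2 for each group. For this the authors used bcl2fastq to demultiplex, STAR to align to GRCm39, and HTSeq to count reads on genes. The submitters' notes also list GRCm38. The deposited values are raw counts, and all library columns were used. The annotation release, strand setting and handling of multiply mapped reads are not given in the sources used here.

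Counts were tested with edgeR 4.0.16 under R 4.3.3 (TMM, genes kept by filterByExpr on the groups, 1 quasi-likelihood model of 4 group means, Benjamini-Hochberg adjustment over 13933 genes, threshold 0.05). The standard error is the absolute log2 fold change over the square root of F. The study used DESeq2, which was an alternative here (version 1.42.0). Other alternatives were RLE or upper-quartile factors, filters of 1 read in any library or 10 counts in every library, a fit of just the 4 libraries compared, the replicate number as a block, and each library left out on the same genes, where a group with 1 library is assumed to vary like the others. Calls were tested on simulated data.

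The genes and lists were chosen with earlier results of these data known. Every one of the 34 genes is named, with test values where it passed and for Trp53, Mdm2 and Mdm4 throughout. Other lists are given by counts, with examples of the largest change. Positions, exon lengths for TPM, and start sites came from GENCODE for GRCm39 (52610 identifiers matched, 97.97%). Intervals and count limits cover counting error only. Sequence on chromosome 18, which holds Pmaip1, and 1 immune marker are not reported here. The other assays of the paper were not analysed here.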

Additional observations from a re-analysis of the deposited data

How the results depend on the processing

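Of 46 calls in the 33 genes, 39 held under every setting that kept all libraries of the comparison, 20 also without each library, and 0 changed sign. Without a filter beyond 1 read, 12 genes were called for hypoxia in FIH-KO cells and 2 for the difference between oxygen conditions. In that fit, 11% and 0.556% of all 25720 genes were called for these comparisons. With only the 4 FIH-KO libraries, 3 of the 33 genes were called for hypoxia. The share of all tested genes was 8.96% there, against 16.8% in the main fit. Leaving out single libraries gave 7 to 16 calls for genotype in normoxia, 5 to 13 in hypoxia, 9 to 18 for hypoxia in WT, 3 to 11 in FIH-KO cells and 0 each time for the difference. For each genotype and oxygen comparison, the share of all tested genes called also varied between the fits without single libraries. Among the values of Trp53, Mdm2, Mdm4, Cdkn1a and Bax, these changed sign, none of which had passed. Mdm2 for genotype in hypoxia was 0.0035 without a filter and between -0.34 and 0.22 without single libraries, where Cdkn1a ranged from -0.12 to 0.47. Trp53 ranged from -0.21 to 0.0060 for genotype in normoxia, from -0.45 to 0.079 in hypoxia, from -0.013 to 0.18 for hypoxia in WT, from -0.26 to 0.26 in FIH-KO cells, and from -0.35 to 0.18 for the difference. The causes were not tested.

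Deviations of libraries with the same replicate number had correlations of -0.0080 to 0.17, the highest between WT and FIH-KO hypoxia. With 2 libraries per group this cannot tell whether equal numbers share a batch, and the main fit assumed no pairing. With the replicate number as a block, 15, 13, 17, 9 and 0 genes were called in the 5 comparisons, against 13, 11, 15, 7 and 0 without it. Of all tested genes, 29.3%, 29%, 33%, 17.8% and 0.0359% were called with the block. Depth limits Perp most, with at most 1 read in any library, then Fas and Gdf15, with at most 21, and Dram1, with 5 to 22.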
